A study of Mus musculus with 9 samples.

Results

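The autophagy and mitophagy machinery was followed at the RNA level through 41 mouse genes, of 27998 mouse genes in the count table. The members were chosen by name as the factors of autophagosome initiation, lipid transfer, conjugation, the LC3 family, receptors and transcriptional regulators, not by a threshold on measured values. They fell into 8 steps of the pathway. After a filter on low counts, 40 of the 41 were tested; Atg4c, an ATG4 protease, had 0 counts in all 9 libraries, which at a floor of 3 counts allows at most 0.174 to 0.264 CPM of the unscaled library total in a single library. Every other level given in CPM uses library sizes adjusted by TMM factors, except where the unscaled total is named.

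Autophagy encloses cytoplasm or whole organelles in a double membrane, the autophagosome, and delivers them to the lysosome. The ULK kinase complex starts the process, a class III phosphatidylinositol 3-kinase complex marks the membrane, and WIPI proteins, ATG2 and ATG9 bring in lipid. Conjugation enzymes then attach LC3 and GABARAP proteins to the membrane, where cargo receptors bind them. Red cell precursors of mice remove their mitochondria this way late in maturation, and the mitophagy receptor Bnip3l (also called Nix) is known to be needed for it.

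All libraries came from G1E, a line of mouse erythroid progenitors made from embryonic stem cells whose Gata1 gene had been disrupted, so every group lacks the cells' own working GATA1, the transcription factor that drives erythroid maturation. Cultures contained the cytokines SCF and EPO, and the cells were spin-infected with virus made in 293T cells. Mutant GATA1 cells received a human GATA1 mutant cDNA in the HMD vector, wildtype GATA1 cells received the human wildtype cDNA, and empty-vector cells received HMD with no insert. Each group had 3 libraries that the series describes as biological replicates. Which mutation it was, how long after infection the cells were lysed and whether infected cells were selected is not given in the sources used here, and the host is 1 cell line carrying a human transgene.

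Library totals were 14788962 to 17289307 counts with the mutant, 11364358 to 13103114 with the wildtype and 13659747 to 15052013 with the empty vector, so the wildtype libraries were the shallowest. As CPM of the unscaled library total, the human GATA1 row held 598 to 706 in mutant libraries, 715 to 921 in wildtype libraries and 0, 2 and 0 counts in empty-vector libraries. Mutant replicates 1 and 2 were unusually alike: their counts had a chi-square per degree of freedom of 2.21, against 14.96 to 55.5 for the other pairs within a group, so they differed by more than sampling noise but by less than any other pair. The cells carried erythroid progenitor RNA in every group, with 7 marker genes summing to 2637 to 2910 CPM in mutant libraries, 3363 to 3823 CPM in wildtype libraries and 2677 to 2929 CPM in empty-vector libraries. The 7 did not move together: with the wildtype against the empty vector 4 were higher and 2 lower in edgeR. The 2 were Kit, the SCF receptor, which averaged 602 ± 43.4 CPM in mutant, 248 ± 11.7 CPM in wildtype and 661 ± 66.2 CPM in empty-vector libraries, and Gata2, a GATA factor of early progenitors, which averaged 286 ± 5.57 CPM, 103 ± 14.3 CPM and 328 ± 52.3 CPM in the same order (SD, n = 3 each). Summed over 4 markers of erythroid maturation (Slc4a1, Alas2, Hbb-bs and Hba-a2), the level was 929 to 998 CPM in mutant libraries, 14466 to 23878 CPM in wildtype libraries and 89.97 to 111 CPM in empty-vector libraries.

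RNA of 3 WIPI genes (Wipi1, Wipi2 and Wdr45) and of Atg9a was higher with wildtype GATA1 than with the empty vector. So was RNA of the 3 tested ATG4 proteases and of all 5 LC3 and GABARAP genes. No member passed the test with the mutant against the empty vector. Wdr45b, a WIPI gene not among the members, was not called for wildtype over empty vector in edgeR (log2 fold change −0.13 ± 0.12, SE, adjusted p = 0.473). Tests used edgeR's quasi-likelihood method on all 9978 genes that passed the filter, with Benjamini-Hochberg adjustment and calls at an adjusted p under 0.05. By that test 16 of 40 members were higher in wildtype than in empty-vector libraries, or 40.0%, against 11.4 percent of all genes tested. None was lower, against 11.9 percent of all genes. At an unadjusted p under 0.05, 19 members were higher and 4 lower (Atg10, Bnip3, Fundc1 and Optn), beside 36.5% of all genes in either direction. DESeq2 called 18 members higher and 0 lower, beside 1379 higher and 1191 lower of 11130 genes. The median log2 fold change of wildtype over empty vector was 0.28 for the members and −0.04 for all genes tested.

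Mutant GATA1 against the empty vector gave 0 called members in either direction, beside 0.21 percent of all genes called higher and 0.0601 percent called lower in edgeR. At an unadjusted p under 0.05, 2 members were higher (Atg2a and Atg9a) and 3 were lower (Bnip3, Bnip3l and Fundc1), or 12.5% of the 40 beside 12.9% of all genes, and DESeq2 also called 0 in either direction. That comparison depended on the libraries and the filter used. Without empty-vector replicate 3, edgeR called Atg2a and Atg9a higher and Bnip3, Bnip3l and Fundc1 lower. In the same run 227 of all 10089 genes tested were higher and 610 lower. With all 9 libraries and no low-count filter, Bnip3, Bnip3l and Fundc1 were also called lower, beside 296 of 15023 genes.

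Set directly against the wildtype, the mutant had 13 of 40 members lower, or 32.5%, against 12.7 percent of all genes tested, and 0 higher, against 13.2 percent of all genes. At an unadjusted p under 0.05, 15 members were lower and 5 higher (Ulk1, Pik3r4, Atg7, Optn and Tfeb), beside 39.1% of all genes in either direction. DESeq2 called 14 members lower and 1 higher (Pik3r4), beside 1503 lower and 1329 higher of 11130 genes. Blocking on replicate number in a fit to the 6 mutant and wildtype libraries gave 20 members lower and those 5 higher, but far more of all genes were called in that fit too, 24.5 percent lower and 23.6 percent higher. The 7 members added among the lower ones were Becn1, Wdr45, Atg3, Atg12, Map1lc3a, Bnip3 and Nbr1. The blocked fit to 6 libraries was added after correlations in these data were seen. Blocking over all 9 libraries gave 11 members lower and 0 higher, beside 1001 lower and 1054 higher of 9978 genes. It called none of those 7, nor any of those 5. The 3 comparisons share libraries with one another, so each gene's values are given side by side below. Without empty-vector replicate 1, edgeR called 4 members higher in mutant than in wildtype libraries (Ulk1, Pik3r4, Atg7 and Tfeb), beside 1523 of 10122 genes. Without empty-vector replicate 3 it called 2 (Pik3r4 and Atg7), beside 1515 of 10089 genes.

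**Figure D1:**
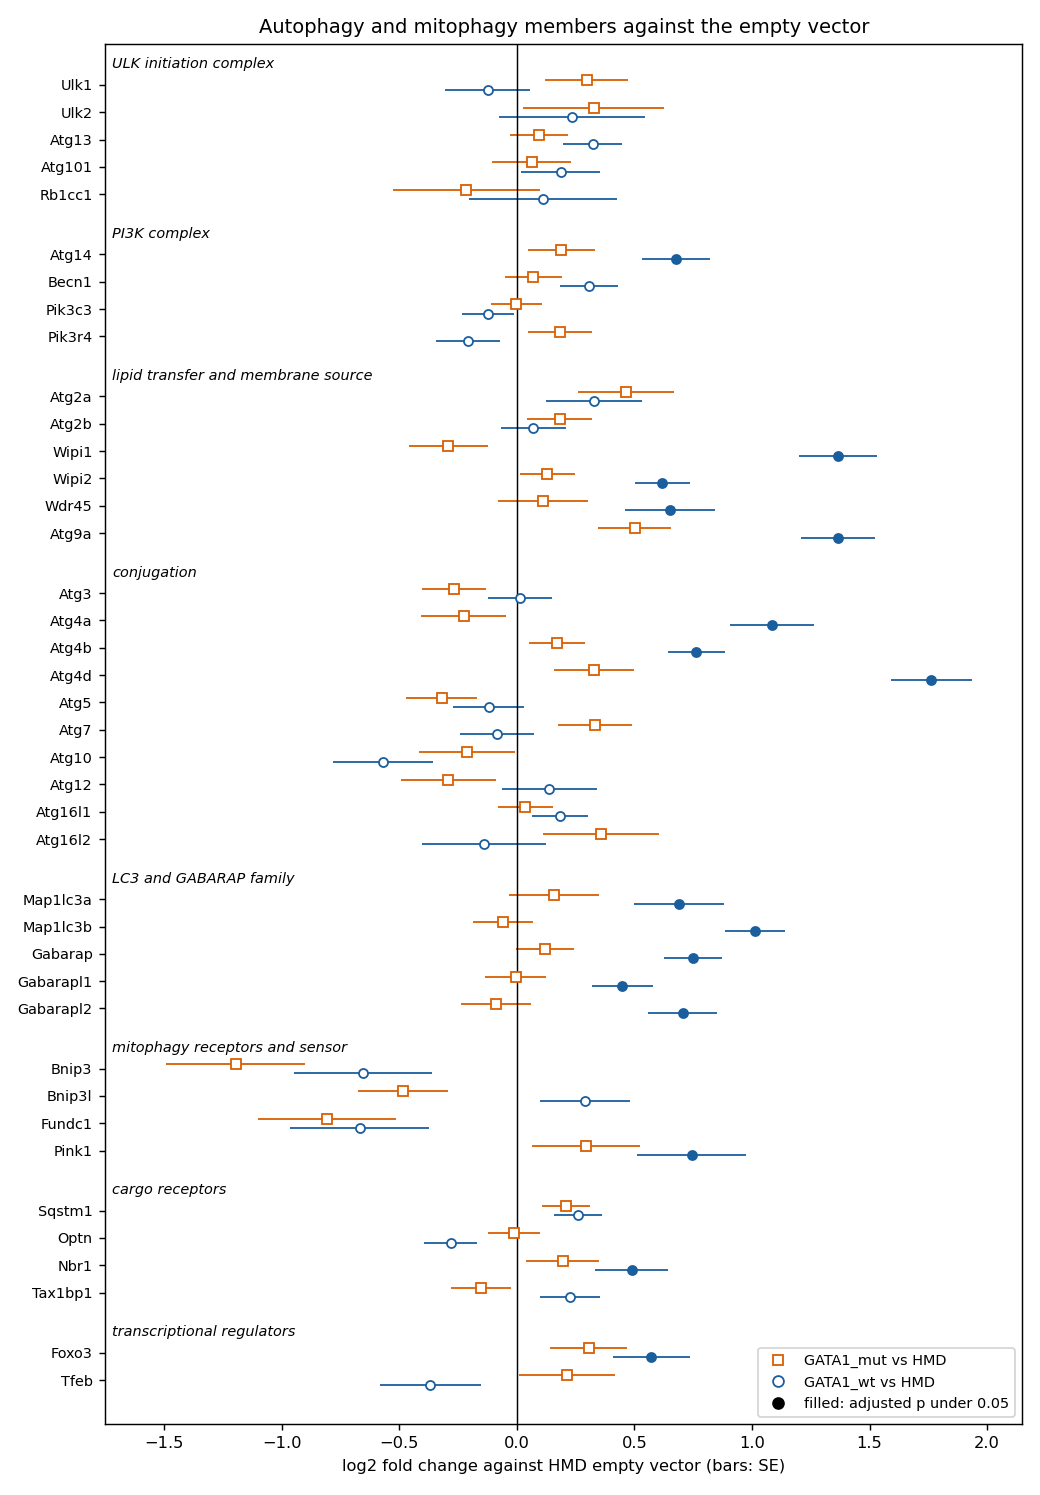
Log2 fold changes against the HMD empty vector for the 40 tested members, grouped by step, with mutant GATA1 as squares and wildtype GATA1 as circles, bars showing the SE, and filled symbols marking an adjusted p under 0.05 in edgeR. All 5 LC3 and GABARAP genes and all 3 tested ATG4 genes have filled circles right of zero, and no square is filled.

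The erythroid maturation list differed between the same groups. All 4 maturation markers were higher in wildtype than in empty-vector libraries, all 4 were lower in mutant than in wildtype libraries, and all 4 were higher in mutant than in empty-vector libraries. Mast cell markers, with Mcpt8 and Tpsb2 at 0 in every library, summed to 10.3 to 13.7 CPM with the mutant, 3.34 to 4.81 CPM under wildtype GATA1 and 29.4 to 36.1 CPM with the empty vector; both tested genes of 6 were lower with the wildtype and with the mutant than with the empty vector. Megakaryocyte markers summed to 43.0 to 48.6 CPM, 28.2 to 34.1 CPM and 56.4 to 63.8 CPM in mutant, wildtype and empty-vector libraries, with 3 of 5 tested genes lower with the wildtype than with the empty vector. Granulocyte and monocyte markers reached at most 2.66 CPM in sum, with Elane, Cd14 and Ly6g at 0, and of the lymphoid markers Cd3e, Ms4a1, Cd8a and Cd4 were at 0. The part of any of these in the results below was not tested, and in bulk RNA fewer cells of a type and less RNA per cell cannot be told apart.

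No member of the ULK initiation complex was called in any comparison. The complex joins the kinases Ulk1 and Ulk2 with Atg13, Atg101 and the scaffold Rb1cc1 (FIP200), and all 5 genes were tested. Atg13 had the smallest unadjusted p of the step. At an unadjusted p under 0.05 the step held Atg13 for wildtype over empty vector, Ulk1 for mutant over wildtype and 0 genes for mutant over empty vector, and DESeq2 called Atg13 alone. Atg13 had 35.3, 37.4 and 33.0 CPM in mutant libraries, 42.6, 43.4 and 37.9 CPM in wildtype libraries and 30.4, 34.3 and 34.5 CPM in empty-vector libraries. Every wildtype library was above every other library, but by little, and the log2 fold change over the empty vector was 0.32 ± 0.12 (SE, adjusted p = 0.0798). DESeq2 called it (adjusted p = 0.0477), and so did edgeR without wildtype replicate 3 (adjusted p = 0.0413), within a range of 0.0413 to 0.212 over 16 alternatives. The other 4 genes had log2 fold changes between −0.12 (Ulk1) and 0.23 (Ulk2) for wildtype over empty vector, and the 5 genes together summed to 123 to 144 CPM, 137 to 149 CPM and 124 to 130 CPM in mutant, wildtype and empty-vector libraries.

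Of the phosphatidylinositol 3-kinase complex, the autophagy-specific subunit alone was called. Atg14 directs the complex to autophagosome formation, whereas Pik3c3 (the VPS34 kinase), Pik3r4 and Becn1 also serve other complexes. Atg14 (GRCm38, chromosome 14, 47540893 to 47570649, minus strand) had 15.7, 15.01 and 17.5 CPM in mutant libraries, 20.6, 22.3 and 24.7 CPM in wildtype libraries and 14.9, 13.4 and 14.0 CPM in empty-vector libraries. The wildtype libraries did not overlap with either other group. Its log2 fold change was 0.68 ± 0.14 for wildtype over empty vector (SE, adjusted p = 0.00428) and −0.49 ± 0.14 for mutant over wildtype (adjusted p = 0.0241). The first was called in all 16 alternatives. The second was lost without mutant replicate 1 (adjusted p = 0.0917), mutant replicate 2 (0.105) or wildtype replicate 3 (0.0526), within a range of 0.00344 to 0.105 over 17 alternatives. It was also lost with mutant replicates 1 and 2 summed (adjusted p = 0.092).

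Becn1, Pik3c3 and Pik3r4 did not pass in any comparison in the main edgeR fit (all 9 libraries, the filter that left 9978 genes, no block). Becn1 averaged 65.7 ± 7.13 CPM with the mutant, 77.4 ± 4.61 CPM under wildtype GATA1 and 62.6 ± 4.59 CPM with the empty vector (SD, n = 3 each). In the blocked fit to 6 libraries it was lower with the mutant than with the wildtype (adjusted p = 0.0266, range 0.0266 to 0.456 over 17 alternatives). Pik3r4 averaged 61.0 ± 2.18 CPM with the mutant and 46.5 ± 3.77 CPM with the wildtype, and its adjusted p for mutant over wildtype was 0.0506. Pik3r4 passed in that comparison in 7 of 17 alternatives, within a range of 0.00192 to 0.17. These included leaving out empty-vector replicate 1 (adjusted p = 0.0201) or 3 (0.0318). They also included no low-count filter (0.0475), a minimum of 5 CPM in 3 libraries (0.0466) and DESeq2 (0.0473).

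The lipid transfer and membrane step held some of the widest gaps between wildtype and empty-vector libraries. In edgeR 4 of its 6 genes were higher, or 66.7% beside 11.4 percent of all genes. Atg9a encodes the scrambling membrane protein whose vesicles seed the autophagosome (chromosome 1, 75180860 to 75192196, minus strand). It had 49.5, 48.5 and 42.9 CPM in mutant libraries, 93.1, 77.5 and 86.0 CPM in wildtype libraries and 28.2, 29.7 and 41.6 CPM in empty-vector libraries. The 3 groups formed separate ranges, with the mutant between the others. Wildtype over empty vector was 2.58-fold (log2 fold change 1.37 ± 0.16, SE, adjusted p = 4.2e-05) and mutant over wildtype was 0.549-fold (log2 fold change −0.86 ± 0.15, adjusted p = 0.00148). Mutant over empty vector had a log2 fold change of 0.50 ± 0.16 and did not pass (adjusted p = 0.304), though it did without empty-vector replicate 3 (log2 fold change 0.70, adjusted p = 0.0197), within a range of 0.0197 to 0.982 over 16 alternatives.

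Wipi1 binds phosphatidylinositol 3-phosphate on the growing membrane (chromosome 11, 109573331 to 109611967, minus strand). It had 11.6, 11.3 and 8.83 CPM in mutant libraries, 34.2, 29.6 and 36.5 CPM in wildtype libraries and 11.1, 13.4 and 14.4 CPM in empty-vector libraries. Wildtype libraries held more than double any other library, while mutant and empty-vector libraries overlapped. The log2 fold change was 1.37 ± 0.17 for wildtype over empty vector (SE, adjusted p = 6.4e-05) and −1.66 ± 0.17 for mutant over wildtype (adjusted p = 1.7e-05). Its relative Wipi2, which recruits the Atg16l1 complex, was the most abundant of the 3 WIPI members per kilobase of exon. Wipi2 had 136, 138 and 133 CPM in mutant libraries, 201, 209 and 162 CPM in wildtype libraries and 123, 120.3 and 129.6 CPM in empty-vector libraries. No library of one group fell within the range of another, and wildtype over empty vector was 0.62 ± 0.12 (log2, SE, adjusted p = 0.00183) and mutant over wildtype −0.49 ± 0.12 (adjusted p = 0.00857).

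Wdr45, the WIPI4 gene, had 7.06, 8.74 and 7.14 CPM in mutant libraries, 8.80, 13.5 and 11.2 CPM in wildtype libraries and 7.26, 7.48 and 6.50 CPM in empty-vector libraries. Its lowest wildtype library lay just above the highest mutant library. The log2 fold change was 0.65 ± 0.19 for wildtype over empty vector (SE, adjusted p = 0.0271) and −0.54 ± 0.19 for mutant over wildtype (adjusted p = 0.0535). The call against the empty vector was lost without wildtype replicate 2 (adjusted p = 0.116), empty-vector replicate 2 (0.0707) or empty-vector replicate 3 (0.0654), within a range of 0.0136 to 0.116 over 16 alternatives. Mutant over wildtype passed without wildtype replicate 1 (adjusted p = 0.033) or empty-vector replicate 3 (0.0494), within a range of 0.012 to 0.202 over 17 alternatives. Atg2a and Atg2b, the lipid transfer proteins that bridge to the endoplasmic reticulum, were not called: Atg2b averaged 92.1 ± 7.83 CPM, 85.2 ± 9.63 CPM and 81.1 ± 12.4 CPM in mutant, wildtype and empty-vector libraries (SD, n = 3 each). Atg2a averaged 39.7 ± 5.03 CPM, 36.1 ± 5.23 CPM and 28.8 ± 8.98 CPM in the same order, and without empty-vector replicate 3 it was called over the empty vector with the mutant (log2 fold change 0.73, adjusted p = 0.0328, range 0.0328 to 0.991) and with the wildtype (0.59, adjusted p = 0.0299, range 0.0299 to 0.626).

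**Figure D2:**
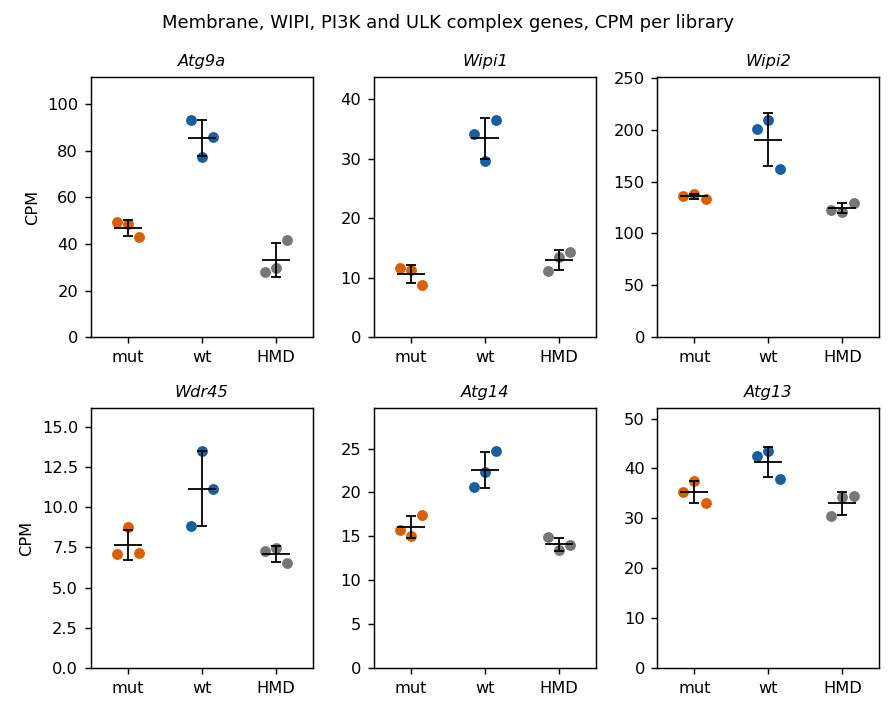
CPM of 6 genes of the membrane, WIPI, PI3K and ULK steps in each library, with points for the libraries, a long bar for the mean and whiskers for the SD (n = 3), and groups running mutant, wildtype, empty vector. The wildtype points stand above the others for Wipi1 at 29.6 to 36.5 CPM and for Atg9a at 77.5 to 93.1 CPM, and the gap is narrow for Atg13 and Wdr45.

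The conjugation step was divided by enzyme type, with all 3 tested ATG4 proteases higher with wildtype GATA1 and none of the other 7 tested genes called. ATG4 proteases trim LC3 and GABARAP proteins before conjugation and release them afterwards. Atg4d (chromosome 9, 21265293 to 21277772, plus strand) had 43.7, 41.7 and 37.0 CPM in mutant libraries, 115, 132 and 84.6 CPM in wildtype libraries and 27.9, 31.8 and 37.9 CPM in empty-vector libraries. Every wildtype library held more than double the highest empty-vector library. Wildtype over empty vector was 3.39-fold, the largest log2 fold change of all 40 members in that comparison (1.76 ± 0.17, SE, adjusted p = 1.1e-05 in edgeR). Mutant over wildtype was 0.370-fold (log2 fold change −1.44 ± 0.17, adjusted p = 6.5e-05).

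Atg4a (chromosome X, 140956907 to 141164270, plus strand) had 13.5, 12.9 and 15.1 CPM in mutant libraries, 32.4, 40.5 and 30.1 CPM in wildtype libraries and 20.2, 13.9 and 14.5 CPM in empty-vector libraries. Its lowest wildtype library was above every mutant and empty-vector library. The log2 fold change was 1.08 ± 0.18 for wildtype over empty vector (SE, adjusted p = 0.000735) and −1.31 ± 0.18 for mutant over wildtype (adjusted p = 0.000202). Atg4b, the protease known for the broadest activity on the family, had 198, 194 and 170.2 CPM in mutant libraries, 304, 291 and 251.4 CPM in wildtype libraries and 152, 164 and 183 CPM in empty-vector libraries. Here too the wildtype libraries stood apart, with log2 fold changes of 0.76 ± 0.12 over the empty vector (SE, adjusted p = 0.000532) and −0.59 ± 0.12 for mutant over wildtype (adjusted p = 0.00347). All 6 of these ATG4 calls held in every alternative run. In exon-length terms the make-up of the ATG4 RNA differed: Atg4d was 16.8 ± 0.487% of the family's summed CPM per kilobase with the mutant, 24.2 ± 2.32% with the wildtype and 14.6 ± 1.51% with the empty vector, and Atg4b was 67.6 ± 1.74%, 55.0 ± 3.18% and 65.5 ± 3.41% (SD, n = 3 each).

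The enzymes and scaffolds that build the conjugates did not pass in the main edgeR fit (all 9 libraries, the filter that left 9978 genes, no block). Atg7 (the shared E1-like enzyme), Atg3 and Atg10 (E2-like enzymes), Atg12 and Atg5 (the covalent pair) and Atg16l1 and Atg16l2 had log2 fold changes for wildtype over empty vector between −0.57 ± 0.21 (SE, Atg10) and 0.18 ± 0.12 (Atg16l1). Atg10 averaged 11.7 ± 2.58 CPM, 9.16 ± 0.872 CPM and 13.6 ± 3.17 CPM in mutant, wildtype and empty-vector libraries (SD, n = 3 each). Without empty-vector replicate 3 it was lower with the wildtype than with the empty vector (adjusted p = 0.0365), within a range of 0.0312 to 0.23 over 16 alternatives. It was also called lower there with no low-count filter (0.0312). Atg7 was 0.42 ± 0.16 higher on the log2 scale in mutant than in wildtype libraries without passing (adjusted p = 0.0685). It passed without empty-vector replicate 1 (adjusted p = 0.0193) or 3 (0.0335) and in the blocked fit to 6 libraries (0.00252), within a range of 0.00252 to 0.188 over 17 alternatives. Atg3 (adjusted p = 0.0174, range 0.0174 to 0.311) and Atg12 (0.00124, range 0.00124 to 0.327) were lower with the mutant than with the wildtype in the blocked fit to 6 libraries. Atg12 was also lower with no low-count filter (0.0495).

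Every gene of the LC3 and GABARAP family was higher with wildtype GATA1 than with the empty vector, against 11.4 percent of all genes. Of the 5, 4 were lower with the mutant than with the wildtype, or 80% against 12.7 percent of all genes. These small ubiquitin-like proteins are the ones attached to the autophagosome membrane. Map1lc3b (chromosome 8, 121590361 to 121598760, plus strand), the source of LC3B, had 116, 118 and 104 CPM in mutant libraries, 230.4, 266 and 215 CPM in wildtype libraries and 133, 115 and 104 CPM in empty-vector libraries. The wildtype group lay far above the others, which overlapped. The wildtype level was 2.02-fold (log2 fold change 1.01 ± 0.13, SE, adjusted p = 8.6e-05) and mutant over wildtype 0.476-fold (log2 fold change −1.07 ± 0.13, adjusted p = 6.6e-05).

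Gabarap (chromosome 11, 69991143 to 69994951, plus strand) had 221, 210.1 and 215 CPM in mutant libraries, 378, 346 and 274 CPM in wildtype libraries and 203, 188 and 203 CPM in empty-vector libraries. All wildtype libraries were above all others, and all mutant libraries were slightly above all empty-vector libraries. Its log2 fold change was 0.75 ± 0.12 for wildtype over empty vector (SE, adjusted p = 0.000776) and −0.63 ± 0.12 for mutant over wildtype (adjusted p = 0.00293). Gabarapl2 (GATE-16) had 31.8, 34.2 and 28.2 CPM in mutant libraries, 53.9, 62.9 and 46.6 CPM in wildtype libraries and 37.9, 31.3 and 31.0 CPM in empty-vector libraries. Again the wildtype group alone stood apart, with log2 fold changes of 0.70 ± 0.15 over the empty vector (SE, adjusted p = 0.00395) and −0.79 ± 0.15 for mutant over wildtype (adjusted p = 0.00195).

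Gabarapl1 had 133, 137 and 121 CPM in mutant libraries, 176, 211 and 148 CPM in wildtype libraries and 134, 125 and 133 CPM in empty-vector libraries. The gap between the lowest wildtype library and the highest of the others was small. Its log2 fold change was 0.45 ± 0.13 for wildtype over empty vector (SE, adjusted p = 0.0251) and −0.45 ± 0.13 for mutant over wildtype (adjusted p = 0.0228). The call over the empty vector was lost without wildtype replicate 1 (adjusted p = 0.0601), wildtype replicate 2 (0.116) or empty-vector replicate 2 (0.108), within a range of 0.00356 to 0.116 over 16 alternatives. The call for mutant over wildtype was lost without mutant replicate 1 (adjusted p = 0.0726), 2 (0.0572) or 3 (0.0806) and without wildtype replicate 1 (0.0637) or 2 (0.101), within a range of 0.000445 to 0.101 over 17 alternatives. It was also lost with mutant replicates 1 and 2 summed (adjusted p = 0.0632).

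Map1lc3a was the scarcest of the family per kilobase of exon, with 5.20, 5.79 and 4.42 CPM in mutant libraries, 8.001, 7.80 and 6.50 CPM in wildtype libraries and 4.25, 4.33 and 5.21 CPM in empty-vector libraries. All wildtype libraries were above all others. Wildtype over empty vector was 0.69 ± 0.19 (log2, SE, adjusted p = 0.0207), and mutant over wildtype was −0.53 ± 0.19 and did not pass (adjusted p = 0.0548), though it did without wildtype replicate 3 (adjusted p = 0.0352) or empty-vector replicate 3 (0.0485), within a range of 0.0235 to 0.165 over 17 alternatives. The call over the empty vector was lost without wildtype replicate 1 (adjusted p = 0.0746) or 2 (0.061) and without empty-vector replicate 1 (0.0536) or 2 (0.0907), within a range of 0.0133 to 0.0907 over 16 alternatives. Summed over the 5 genes, the family stood at 473 to 507 CPM with the mutant, 690 to 894 CPM under wildtype GATA1 and 464 to 513 CPM with the empty vector. Among wildtype libraries, replicate 3 had the lowest family sum and also the lowest sum of erythroid maturation markers, 14466 CPM against 20502 and 23878 CPM in replicates 1 and 2. The sum of the mitophagy receptors and sensor was instead highest in replicate 3, at 639 CPM against 473 and 560 CPM in replicates 1 and 2. Any link between these sums was not tested.

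**Figure D3:**
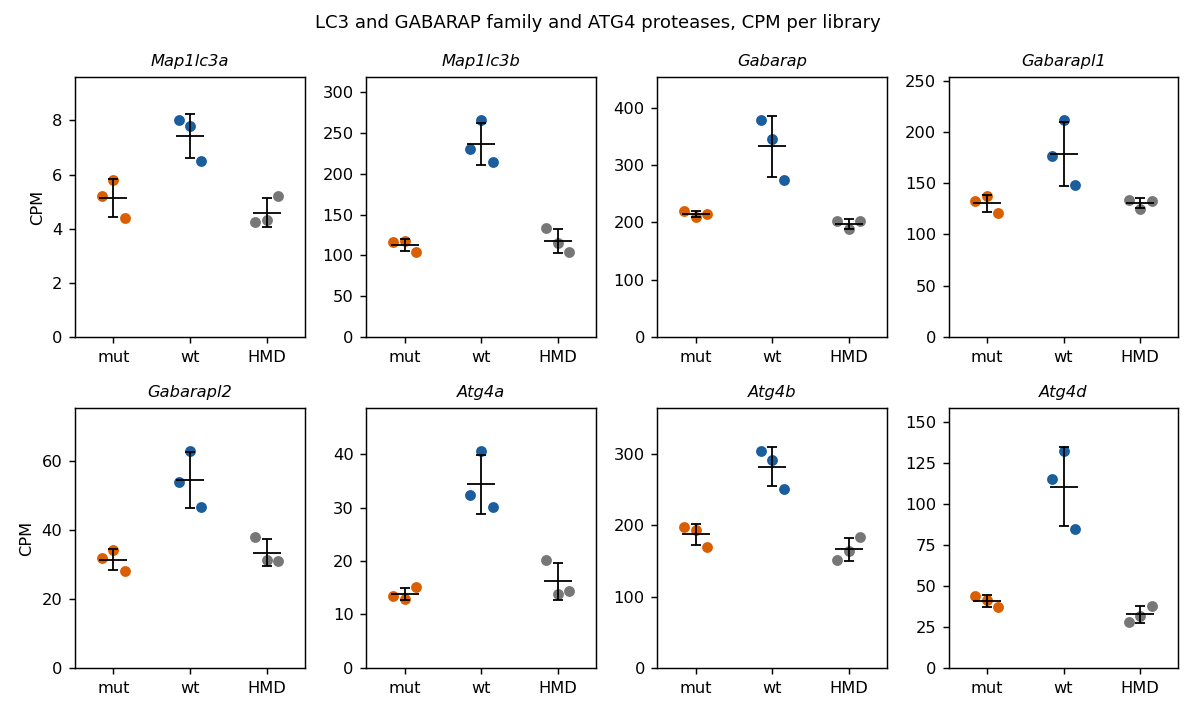
CPM of the 5 LC3 and GABARAP genes and the 3 ATG4 genes with counts in each library, with points for libraries, a long bar for the mean and whiskers for the SD (n = 3), and groups running mutant, wildtype, empty vector. The 3 wildtype points are above all other points in every panel, from 84.6 to 132 CPM for Atg4d and from 148 to 211 CPM for Gabarapl1, whose panel shows the smallest gap for its level.

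The mitophagy receptors did not follow the LC3 family as a group. Bnip3l, the receptor known for clearing mitochondria from maturing red cells in mice (chromosome 14, 66985239 to 67008877, minus strand), had 233, 237 and 274 CPM in mutant libraries, 356, 443 and 473 CPM in wildtype libraries and 445, 358 and 238 CPM in empty-vector libraries. Mutant and wildtype libraries did not overlap, while the empty-vector libraries spanned both. It was 0.584-fold as abundant with the mutant as with the wildtype (log2 fold change −0.78 ± 0.19, SE, adjusted p = 0.011), a call that held in all 17 alternatives. Wildtype over empty vector had a log2 fold change of 0.29 ± 0.19 and did not pass (adjusted p = 0.297).

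Bnip3, a related receptor that hypoxia is known to raise, had 69.6, 61.5 and 43.0 CPM in mutant libraries, 76.2, 74.5 and 103 CPM in wildtype libraries and 215, 95.5 and 89.4 CPM in empty-vector libraries. Empty-vector replicate 1 alone held more than double any mutant or wildtype library. The log2 fold change over the empty vector was −1.20 ± 0.30 with the mutant (SE, adjusted p = 0.171) and −0.65 ± 0.29 with the wildtype (adjusted p = 0.126), so neither passed. Without empty-vector replicate 3, both were called, at −1.42 for the mutant (adjusted p = 0.0208, range 3.67e-08 to 0.618 over 16 alternatives) and −0.88 for the wildtype (adjusted p = 0.04, range 0.000889 to 0.668). Without empty-vector replicate 1, mutant over wildtype was called at −0.54 (adjusted p = 0.0447, range 0.00746 to 0.432 over 17 alternatives).

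Fundc1, a receptor in the outer mitochondrial membrane, had 34.3, 34.9 and 43.8 CPM in mutant libraries, 33.8, 35.5 and 55.2 CPM in wildtype libraries and 94.3, 69.3 and 34.4 CPM in empty-vector libraries. Empty-vector replicate 3 lay close to the lowest libraries of the other groups. Its log2 fold change over the empty vector was −0.81 ± 0.29 with the mutant (SE, adjusted p = 0.343) and −0.67 ± 0.29 with the wildtype (adjusted p = 0.12). Without that library both were called, at −1.12 for the mutant (adjusted p = 0.0189, range 0.00124 to 0.991) and −0.98 for the wildtype (adjusted p = 0.00512, range 0.00141 to 0.436), and the wildtype also passed without wildtype replicate 3 (adjusted p = 0.0383). For Bnip3l, mutant over empty vector had a log2 fold change of −0.49 ± 0.19 (adjusted p = 0.355) and was called without empty-vector replicate 3 at −0.70 (adjusted p = 0.0238, range 0.0238 to 0.991).

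Pink1, the kinase that accumulates on damaged mitochondria, was the only gene of its step called higher with the wildtype than with the empty vector. It had 5.26, 5.55 and 5.001 CPM in mutant libraries, 7.28, 6.74 and 7.55 CPM in wildtype libraries and 2.71, 5.24 and 4.89 CPM in empty-vector libraries. The wildtype libraries were tight and above all others, and empty-vector replicate 1 was low. Wildtype over empty vector was 0.74 ± 0.23 (log2, SE, adjusted p = 0.034). The call was lost without mutant replicate 2 (adjusted p = 0.0516), without any of wildtype replicates 1 (0.0843), 2 (0.06) and 3 (0.0541), and without empty-vector replicate 1 (0.0734), within a range of 0.0197 to 0.0843 over 16 alternatives. It was also lost with mutant replicates 1 and 2 summed (adjusted p = 0.0522).

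Of the cargo receptors, Nbr1 was higher with the wildtype than with the empty vector and Tax1bp1 was lower with the mutant than with the wildtype. Nbr1, a receptor for ubiquitinated cargo, had 61.4, 62.2 and 68.8 CPM in mutant libraries, 87.8, 62.7 and 84.9 CPM in wildtype libraries and 45.9, 63.2 and 58.8 CPM in empty-vector libraries. Wildtype replicate 2 fell below empty-vector replicate 2, so the groups overlapped. The log2 fold change was 0.49 ± 0.16 (SE, adjusted p = 0.0388). The call was lost in 8 of 16 alternatives, among them those without mutant replicate 2 (adjusted p = 0.0605), wildtype replicate 1 (0.135) or 3 (0.0718) and empty-vector replicate 1 (0.111) or 2 (0.0501), within a range of 0.0117 to 0.135.

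Tax1bp1, an adaptor for aggregates and pathogens, had 141, 147 and 164 CPM in mutant libraries, 194, 173 and 219.9 CPM in wildtype libraries and 181, 176 and 146 CPM in empty-vector libraries. Mutant and wildtype libraries were separated by a small gap. Mutant over wildtype was −0.38 ± 0.13 (log2, SE, adjusted p = 0.0445), and the call was lost in 9 of 17 alternatives. These included leaving out mutant replicate 1 (adjusted p = 0.15), 2 (0.14) or 3 (0.0519), wildtype replicate 1 (0.0927) or 3 (0.107) or empty-vector replicate 2 (0.0681), within a range of 0.00121 to 0.151. Sqstm1, the p62 receptor, was the most abundant of the 4 by CPM per kilobase. It averaged 529 ± 29.4 CPM with the mutant, 548 ± 26.9 CPM under wildtype GATA1 and 457 ± 14.9 CPM with the empty vector (SD, n = 3 each), and no comparison passed in edgeR (adjusted p = 0.0854 for wildtype over empty vector). DESeq2 called it (adjusted p = 0.0299), as did edgeR without wildtype replicate 3 (adjusted p = 0.0434), within a range of 0.0299 to 0.248 over 16 alternatives. Optn (optineurin) averaged 84.7 ± 4.52 CPM, 70.4 ± 1.68 CPM and 85.5 ± 7.86 CPM in mutant, wildtype and empty-vector libraries and did not pass (adjusted p = 0.0889 for wildtype over empty vector).

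**Figure D4:**
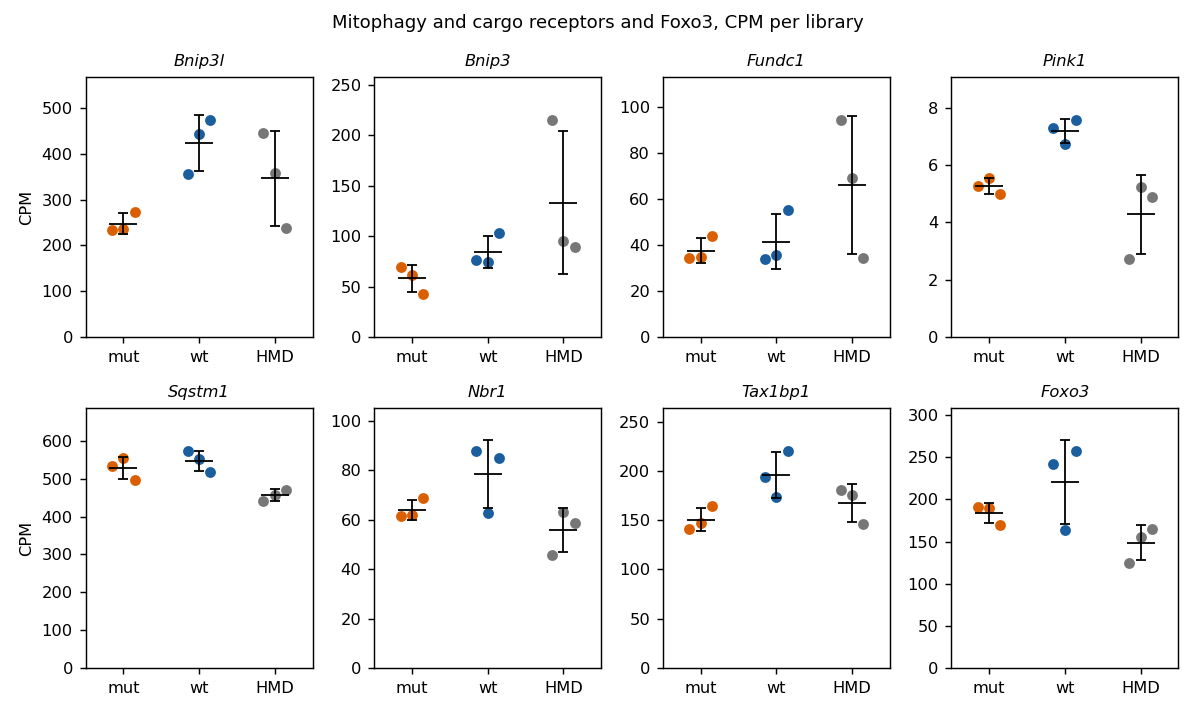
CPM of mitophagy receptors, Pink1, cargo receptors and Foxo3 in each library, with points for libraries, a long bar for the mean and whiskers for the SD (n = 3), and groups running mutant, wildtype, empty vector. The empty-vector points of Bnip3l, Bnip3 and Fundc1 are widely spread, from 238 to 445 CPM, 89.4 to 215 CPM and 34.4 to 94.3 CPM, and those of Sqstm1 lie close together.

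Of the transcriptional regulators, Foxo3 was higher with the wildtype and Tfeb was not called. Foxo3 is a forkhead factor that activates autophagy genes, and Tfeb drives lysosomal and autophagy genes. Foxo3 had 191, 189.8 and 169.6 CPM in mutant libraries, 242, 164 and 257 CPM in wildtype libraries and 125, 155 and 165 CPM in empty-vector libraries. Wildtype replicate 2 lay inside the empty-vector range, so the groups overlapped. Its log2 fold change over the empty vector was 0.57 ± 0.16 (SE, adjusted p = 0.0234). The call was lost without wildtype replicate 1 (adjusted p = 0.0843) or 3 (0.0563) and without empty-vector replicate 1 (0.0778) or 2 (0.0613), within a range of 0.00198 to 0.0843 over 16 alternatives. Without wildtype replicate 2, mutant over wildtype was called for Foxo3 at −0.44 (adjusted p = 0.0437, range 0.0437 to 0.538 over 17 alternatives). Tfeb averaged 8.85 ± 1.06 CPM with the mutant, 5.91 ± 0.746 CPM under wildtype GATA1 and 7.63 ± 1.94 CPM with the empty vector (SD, n = 3 each), with a log2 fold change of 0.58 ± 0.21 for mutant over wildtype (SE, adjusted p = 0.0601). Without empty-vector replicate 1 it passed (adjusted p = 0.0439), as Ulk1 did (0.029), within ranges of 0.0117 to 0.184 and 0.00897 to 0.268 over 17 alternatives.

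Scaled by exon length, Sqstm1, Gabarap, Bnip3l and Gabarapl1 were the most abundant members, and Atg16l2 and Ulk2 the scarcest with counts. In mutant libraries the highest levels were those of Sqstm1 at 158 ± 8.75, Gabarap at 117 ± 2.87, Gabarapl1 at 64.7 ± 4.10 and Bnip3l at 64.2 ± 5.86 CPM per kilobase (SD, n = 3 each), and the last 2 did not differ beyond their spread. In wildtype libraries they were Gabarap at 180 ± 28.9, Sqstm1 at 163 ± 8.03, Bnip3l at 110 ± 15.8 and Gabarapl1 at 88.6 ± 15.7 CPM per kilobase, where the first 2 overlapped within their SD, as did the last 2. Empty-vector libraries had Sqstm1 at 136 ± 4.43, Gabarap at 107 ± 4.73, Bnip3l at 89.9 ± 26.9 and Gabarapl1 at 64.9 ± 2.39 CPM per kilobase, where Bnip3l overlapped with both of its neighbours within its SD. At the other end, Atg16l2 stood at 0.513 ± 0.0781, 0.366 ± 0.116 and 0.400 ± 0.0623 CPM per kilobase in mutant, wildtype and empty-vector libraries, and Ulk2 stood at 0.637 ± 0.122, 0.595 ± 0.267 and 0.507 ± 0.103. Gabarap made up 54.5 ± 2.03%, 54.6 ± 3.13% and 52.1 ± 0.799% of the LC3 and GABARAP family's summed level in mutant, wildtype and empty-vector libraries, so its share varied little beside its spread. Map1lc3b made up 6.99 ± 0.268% with the mutant, 9.60 ± 0.846% with the wildtype and 7.57 ± 0.826% with the empty vector. Wipi1 made up 13.6 ± 1.53%, 26.3 ± 4.36% and 17.4 ± 1.76% of the summed level of Wipi1, Wipi2 and Wdr45, in the same order of groups. Wdr45b, a WIPI gene not among the members, was left out of that sum.

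**Figure D5:**
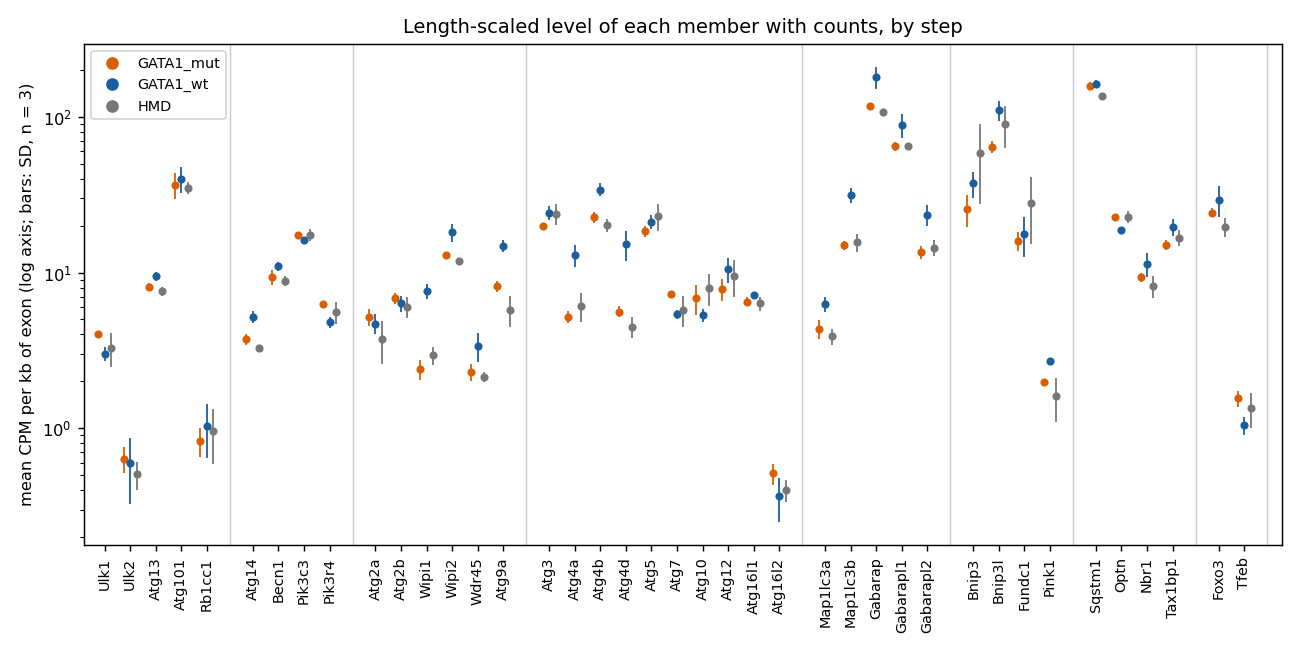
Mean CPM per kilobase of exon for the 40 members with counts, on a log axis, ordered by step, with points for mutant, wildtype and empty-vector libraries from left to right and bars for the SD (n = 3). Levels run from below 1 CPM per kilobase for Ulk2 and Atg16l2 to over 100 for Gabarap and Sqstm1, and the blue wildtype points stand clear of the other 2 for Wipi1, Atg4a, Atg4d and Map1lc3b.

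By group mean, 16 of the 40 members ran in the order empty vector, mutant, wildtype, and 10 ran in the order mutant, empty vector, wildtype. The share of all genes in each order is not given here, and no member was called between mutant and empty vector in the main edgeR fit. Among the 16 genes called higher with the wildtype than with the empty vector, for which the call itself places the wildtype above the empty vector, 11 followed the first order and 5 the second. The 5 were Wipi1, Atg4a, Map1lc3b, Gabarapl1 and Gabarapl2, and their log2 fold changes for mutant over empty vector lay between −0.29 ± 0.17 (SE, Wipi1) and −0.0046 ± 0.13 (Gabarapl1), none past the test.

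The promoters of the 4 members with the smallest adjusted p for wildtype over empty vector are shown, as those with the strongest statistical evidence in that comparison. Each is the stretch from 250 bases before to 50 bases after the transcription start from RefSeq on GRCm38.p6, written 5′ to 3′ along the gene, and capitals mark GATAA, the letters that GATA factors are known to bind. Atg4d is chr9:21265035-21265334 on the plus strand, Atg9a is chr1:75191961-75192260 on the minus strand, Wipi1 is chr11:109611340-109611639 on the minus strand and Map1lc3b is chr8:121590188-121590487 on the plus strand.
Atg4d: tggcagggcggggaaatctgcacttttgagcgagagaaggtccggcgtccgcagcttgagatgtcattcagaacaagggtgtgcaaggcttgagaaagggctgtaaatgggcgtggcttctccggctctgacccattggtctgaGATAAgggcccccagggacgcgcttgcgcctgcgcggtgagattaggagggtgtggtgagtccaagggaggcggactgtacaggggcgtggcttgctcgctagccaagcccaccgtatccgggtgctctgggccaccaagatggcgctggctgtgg
Atg9a: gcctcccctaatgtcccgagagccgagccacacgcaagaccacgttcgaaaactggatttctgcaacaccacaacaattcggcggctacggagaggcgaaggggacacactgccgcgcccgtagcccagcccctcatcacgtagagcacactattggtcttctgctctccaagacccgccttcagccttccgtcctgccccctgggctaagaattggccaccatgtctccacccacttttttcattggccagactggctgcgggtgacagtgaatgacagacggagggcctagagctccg
Wipi1: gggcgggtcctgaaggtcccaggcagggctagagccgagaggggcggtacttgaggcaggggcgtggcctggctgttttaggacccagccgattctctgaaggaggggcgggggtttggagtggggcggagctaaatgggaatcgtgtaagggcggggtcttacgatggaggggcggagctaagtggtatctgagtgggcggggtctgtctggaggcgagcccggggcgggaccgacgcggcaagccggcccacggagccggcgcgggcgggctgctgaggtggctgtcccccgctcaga
Map1lc3b: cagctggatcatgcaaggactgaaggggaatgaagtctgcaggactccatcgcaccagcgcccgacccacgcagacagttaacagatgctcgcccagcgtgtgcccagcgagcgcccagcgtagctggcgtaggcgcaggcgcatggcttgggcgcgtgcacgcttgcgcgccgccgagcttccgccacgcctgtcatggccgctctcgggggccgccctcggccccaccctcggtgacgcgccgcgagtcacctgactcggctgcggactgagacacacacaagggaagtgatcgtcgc
Atg4d held GATAA once, starting 106 bases before the transcription start on the gene's own strand, and the other 3 promoters held it on neither strand. All 4 were GC-rich, at 61.7%, 59.3%, 69.0% and 68.0% in the order shown.

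In the promoter table, 34 of the 41 members were matched, with 40 promoters. GATAA, searched on both strands, was present in 5 of the 40, or 12.5%, against 25.4% of 32851 promoters of the same length, and in 4 of 17 promoters, or 23.5%, of members higher with the wildtype than with the empty vector. CACGTG, the letters of the E-box that TFEB is known to bind, was present in 12.5% of member promoters against 7.15% of all, and in 1 of the 17, or 5.88%. TGTTTAC, a forkhead motif, was present in none of the 40 and in 3.65% of all. Neither CACGTG nor TGTTTAC occurred in the 4 promoters shown. These matches describe letters in a short window and say nothing of binding.

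Library preparation kept no strand, so reads of overlapping genes cannot be separated by strand. Atg4d shares 1405 exonic bases, 19.3% of its exon length, with Kri1 on the opposite strand, and Kri1 was not called for wildtype over empty vector (log2 fold change −0.26 ± 0.15, SE, adjusted p = 0.247). Atg9a shares 46 exonic bases with Ankzf1, which was not called either (log2 fold change 0.10, adjusted p = 0.624). Other exonic overlaps of over 10% of the exon length were those of Becn1 with Cntd1 (43.9%), Atg9a with Gm29253 on its own strand (31.8%), Gabarapl1 with 1700101I11Rik (28.3%), Wdr45 with Gm45208 on its own strand (24.7%), Bnip3 with Gm45507 (22.3%) and Sqstm1 with Mrnip (17.3%). Cntd1 averaged 0.143, 0.182 and 0.0459 CPM in mutant, wildtype and empty-vector libraries, and levels of the other 5 partners were not used here.

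Of 74 other genes of the pathway, in 6 lists of regulators, fusion factors, lysosomal genes and further receptors, 67 were tested. With the wildtype against the empty vector, 11 of the 67 were higher, or 16.4% beside 11.4 percent of all genes, and 7 lower, or 10.4% beside 11.9 percent, in edgeR. Mutant against wildtype gave 8 higher, or 11.9% beside 13.2 percent of all genes, and 13 lower, or 19.4% beside 12.7 percent. Mutant against empty vector gave 0 in either direction and 0 called by DESeq2. In that comparison 11 of the 67 had an unadjusted p under 0.05 in edgeR, beside 12.9% of all genes. The median log2 fold change of the 67 was 0.06 for wildtype over empty vector, against 0.28 for the 40 members.

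The lysosomal list had 7 of 22 tested genes higher and 1 lower with the wildtype than with the empty vector, or 31.8% and 4.55% beside 11.4 and 11.9 percent of all genes. It had 7 lower and 3 higher with the mutant than with the wildtype, or 31.8% and 13.6% beside 12.7 and 13.2 percent. Ctsb, the protease cathepsin B, had a log2 fold change of 2.25 ± 0.13 for wildtype over empty vector (SE, adjusted p = 7.25e-08) and −1.93 ± 0.13 for mutant over wildtype (adjusted p = 3.66e-07). Atp6v0e, a subunit of the proton pump that acidifies lysosomes, had 0.85 ± 0.13 (adjusted p = 0.000527) and −0.85 ± 0.13 (adjusted p = 0.000597). Of 12 factors for fusion with the lysosome, Stx17, the autophagosomal syntaxin, was higher with the wildtype than with the empty vector at 0.52 ± 0.12 (adjusted p = 0.00734). Stx17 was also lower with the mutant than with the wildtype at −0.60 ± 0.12 (adjusted p = 0.00318), and no other was called. Each call was 8.33% of the list, beside 11.4 percent of all genes for the first comparison and 12.7 percent for the second.

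Among 7 tested regulators of the PI3K complex and other core factors, Rubcn (Rubicon), an inhibitor of autophagosome maturation, was lower with the wildtype than with the empty vector at −0.70 ± 0.17 (SE, adjusted p = 0.00891) and higher with the mutant than with the wildtype at 0.84 ± 0.17 (adjusted p = 0.00284). Vmp1, a membrane protein of the endoplasmic reticulum, was lower with the mutant than with the wildtype at −0.60 ± 0.16 (adjusted p = 0.0168). For wildtype over empty vector, 0% of this list were higher and 14.3% lower, beside 11.4 and 11.9 percent of all genes. For mutant over wildtype, 28.6% were higher and 14.3% lower, beside 13.2 and 12.7 percent. Of 8 other mitophagy factors, Bcl2l13 was higher (0.43 ± 0.10, adjusted p = 0.00912) and Nipsnap1 lower (−0.50 ± 0.14, adjusted p = 0.0202) with the wildtype than with the empty vector. That was 12.5% of the list in each direction, beside 11.4 and 11.9 percent of all genes. Bcl2l13 was also lower with the mutant than with the wildtype (−0.34 ± 0.10, adjusted p = 0.0269), or 12.5% of the list beside 12.7 percent of all genes.

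The 6 tested genes for other selective receptors had 1 call in each direction with the wildtype over the empty vector, or 16.7% each beside 11.4 and 11.9 percent of all genes. They were Calcoco1 at 0.76 ± 0.15 (SE, adjusted p = 0.00241) and Rtn3 at −0.36 ± 0.12 (adjusted p = 0.0379), both receptors for the endoplasmic reticulum. With the mutant over the wildtype, Ncoa4, the ferritin receptor, was higher at 0.50 ± 0.12 (adjusted p = 0.0116) and Sec62 lower at −0.62 ± 0.20 (adjusted p = 0.0383). In that comparison 16.7% of the list were higher and 33.3% lower, beside 13.2 and 12.7 percent of all genes. In the list of nutrient signalling and regulators, 1 of 12 tested genes was higher and 3 were lower with the wildtype than with the empty vector. These were 8.33% and 25% of the list, beside 11.4 and 11.9 percent of all genes. Rragd, a GTPase that signals amino acids to mTORC1, had 2.09 ± 0.21 for wildtype over empty vector (adjusted p = 1.21e-05) and −2.95 ± 0.22 for mutant over wildtype (adjusted p = 1.18e-06). Ddit4 (REDD1), an mTORC1 inhibitor, was lower with the wildtype than with the empty vector at −1.10 ± 0.23 (adjusted p = 0.00424). Tfe3, a relative of Tfeb, was higher with the mutant than with the wildtype at 0.68 ± 0.14 (adjusted p = 0.004). For mutant over wildtype 16.7% of this list were higher and 8.33% lower, beside 13.2 and 12.7 percent of all genes.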

How the data were processed

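RNA was measured in 9 libraries of G1E cells, prepared by the Smart-seq2 method from total RNA (full-length cDNA primed on poly(A), no strand) with Nextera-based indexes, per the labels' protocols. The authors deposited 1 table of raw counts per gene, with 27998 mouse rows and 1 row of human GATA1, which was left out of the tests. Reads were aligned with STAR to GRCm38.p4 and hg19, per the submitters' processing notes. How reads were counted, on which annotation, with which STAR version and with what treatment of strand and multi-mapping reads is not given in the sources used here. Groups and replicate numbers came from the sample titles.

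Counts were fitted with edgeR 4.0.16 (limma 3.58.1, R 4.3.3): TMM factors, filterByExpr by group (9978 genes tested), a quasi-likelihood model with 1 mean per group over all 9 libraries (6 residual degrees of freedom) and Benjamini-Hochberg adjustment over all genes tested. A gene was called at an adjusted p under 0.05. The SE of a log2 fold change was derived from the F-statistic and is approximate. P-values measure only the spread between these libraries. The floor of 3 counts covers counting error only. CPM per kilobase used the merged exon length in GENCODE M21 on GRCm38, and coordinates are from the same annotation. The fit was tested on simulated data. Alternatives were RLE factors, no low-count filter, a minimum of 5 CPM in 3 libraries, DESeq2 1.42.0, only the 6 libraries compared, the replicate number as a block, each library left out, and mutant replicates 1 and 2 summed.

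Deviations from the group means correlated across genes between same-numbered mutant and wildtype libraries (r = 0.171, 0.286 and 0.533), which was taken as pairing from the data, not from the labels, although mutant replicate 1 correlated more with wildtype replicate 2 (r = 0.24) than with its own number and mutant replicate 2 with wildtype replicate 1 at 0.223; for wildtype and empty-vector libraries r was −0.222, −0.373 and −0.336, and for mutant and empty-vector libraries −0.243, −0.202 and −0.435. The block in the 6 mutant and wildtype libraries was added after seeing this. The members, lists, tests and named genes were chosen with earlier results of these data known. Named with values in every library were all members called in any comparison and, in a step with none, the member with the smallest unadjusted p; Bnip3 and Fundc1 were added after their values were seen. Of each other list, the 2 called genes of smallest adjusted p per comparison were named, and Wdr45b was named though not called. Promoters of 7 members and protein sequences were not used here, and some marker genes are not reported here.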

Additional observations from a re-analysis of the deposited data

How the results depend on the processing

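The 10 genes Atg14, Wipi1, Wipi2, Atg9a, Atg4a, Atg4b, Atg4d, Map1lc3b, Gabarap and Gabarapl2 were called higher with the wildtype than with the empty vector in all 16 alternatives. With the mutant against the wildtype, Wipi1, Wipi2, Atg9a, Atg4a, Atg4b, Atg4d, Map1lc3b, Gabarap, Gabarapl2 and Bnip3l were called lower in all 17. No called member changed sign in any alternative run. With only the 6 wildtype and empty-vector libraries, edgeR called 12 members higher for wildtype over empty vector, beside 879 of 9811 genes. Wdr45 (adjusted p = 0.0544), Gabarapl1 (0.0647), Pink1 (0.0686) and Nbr1 (0.0779) lost their calls there. Leaving out 1 library at a time gave 11 to 16 members higher and 0 to 3 lower for wildtype over empty vector, 0 to 2 higher and 0 to 3 lower for mutant over empty vector, and 0 to 4 higher and 10 to 15 lower for mutant over wildtype. Among all genes in those runs, 732 to 1614 were higher and 655 to 1641 lower for wildtype over empty vector. The ranges were 5 to 227 and 2 to 610 for mutant over empty vector, and 693 to 1581 and 778 to 1577 for mutant over wildtype. Each run tested 10073 to 10125 genes. With no low-count filter, 3 members were lower for wildtype over empty vector (Atg10, Bnip3 and Fundc1), beside 1483 of 15023 genes. In that run 3 were lower for mutant over empty vector (Bnip3, Bnip3l and Fundc1), beside 296 genes. For mutant over wildtype 3 were higher (Pik3r4, Atg7 and Tfeb), beside 1534 genes. For mutant over wildtype, Pik3r4 alone was higher with a minimum of 5 CPM, beside 1180 of 8540 genes, and with DESeq2, beside 1329 of 11130 genes. With only the 6 mutant and wildtype libraries, 4 members were higher (Ulk1, Pik3r4, Atg7 and Tfeb), beside 1437 of 9846 genes. The replicate block in those 6 libraries gave 5 members higher and 20 lower, beside 2323 and 2417 of 9846 genes. The replicate block over all 9 libraries gave 15 members higher for wildtype over empty vector, beside 937 of 9978 genes, and Nbr1 lost its call (adjusted p = 0.0681). It gave 11 lower for mutant over wildtype, beside 1001 genes, and Atg14 (0.0511) and Tax1bp1 (0.0868) lost theirs in edgeR. With mutant replicates 1 and 2 summed, edgeR called 10 members lower for mutant over wildtype, beside 772 of 10092 genes. Atg14 (adjusted p = 0.092), Gabarapl1 (0.0632) and Tax1bp1 (0.151) lost their calls there. For wildtype over empty vector the same setting gave 14 members higher, beside 998 genes, and Pink1 (0.0522) and Nbr1 (0.0616) lost their calls. The cause of these changes was not tested. The calls lost most often were those of Tax1bp1 for mutant over wildtype, in 9 of 17 alternatives, and of Nbr1 and Pink1 for wildtype over empty vector, in 8 and 7 of 16. Over all genes, leaving out empty-vector replicate 3 gave 227 higher and 610 lower for mutant over empty vector, against 21 and 6 with all 9 libraries.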
